A study of Mus musculus with 6 samples.

Results

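The genes examined were 58 regulators and effectors of the cell division cycle and of DNA replication, taken by symbol from a list of names, among 17909 gene identifiers that the deposited tables list in at least 1 library. They comprise 8 G1 cyclins and cyclin-dependent kinases (CDKs), 23 S phase genes, 24 G2/M genes and 3 genes for CDK inhibitors or a CDK-binding phosphatase. RNA was sequenced from primary hepatic stellate cells of the mouse, which are pericytes of the liver that store vitamin A, in 6 libraries collected at day 1 of culture in medium with 10% serum (4 h of attachment, then 14 h). The HAS2_Tg group (ASMA-HAS2 Tg, 3 libraries, replicates 4, 5 and 6) carried a human HAS2 transgene, which codes for a hyaluronan synthase, under the ASMA promoter, that of alpha smooth muscle actin, a gene of activated stellate cells. The Has2_KO group (Has2 f/f Lrat-cre, 3 libraries, replicates 7, 8 and 9) lacked Has2 in stellate cells, through Cre under the promoter of Lrat, a stellate cell gene. All mice were male C57BL/6 of 24 weeks. A wild-type group was not analysed here. A difference between the groups therefore has no common baseline, and higher in one group cannot be told apart from lower in the other. The labels do not say that libraries came from separate animals, so p-values measure the spread between these libraries, which may be technical.

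Libraries held 11961726 to 12423220 expected counts in all. Counts of Has2 itself were 847, 889 and 835 in HAS2_Tg and 1, 1 and 1 in Has2_KO, as the knockout label has it. Reads of the human transgene could count to mouse Has2 only where they aligned to it, so this does not check the transgene. Within groups, pairs of libraries differed by more than sampling noise, with a chi-square divided by its degrees of freedom between 2.31 and 3.17 for Has2_KO pairs and between 6.24 and 31.5 for HAS2_Tg pairs, where replicate 4 stood apart from the other libraries. All 12 stellate markers had counts in every library, and their summed level was 8440 to 9300 CPM (counts scaled to library size with TMM factors) in HAS2_Tg and 6310 to 6660 in Has2_KO. Of these 12 markers, 8 were higher in HAS2_Tg and 4 did not pass the test, and 3 had a negative log2 fold change. Markers of other liver cells moved with the groups: 19 of 19 tested macrophage markers (20 listed) and 18 of 18 liver endothelial markers were lower in HAS2_Tg. Summed macrophage markers reached 16.3 to 18.2 CPM in HAS2_Tg and 701 to 754 CPM in Has2_KO, and summed endothelial markers 40.2 to 46.9 and 1140 to 1240 CPM. Hepatocyte markers summed to 2.69 to 3.92 and 35.7 to 45.3 CPM, mesothelial markers to 0.0897 to 0.523 and 4.32 to 5.09 CPM, and neutrophil markers to 30.1 to 34.7 and 37.2 to 39.8 CPM. The neutrophil sum does not describe its list. Of its 3 tested markers (7 listed), 2 were lower in HAS2_Tg and 1 did not pass the test, with log2 fold changes from -5.75 to 0.03. The macrophage genes Clec4f and Timd4 and the endothelial genes Gpihbp1 and Emcn were at 0 in every HAS2_Tg library. The part of these markers in the cell cycle results was not tested. In RNA from a whole culture, fewer cells of a type and less RNA per cell cannot be told apart.

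Cells enter the division cycle when D-type cyclins with CDK4 or CDK6, and then cyclin E with CDK2, inactivate the retinoblastoma protein and free E2F factors, which switch on the genes of DNA replication. Origins of replication are licensed in G1 by CDC6 and CDT1, which load the MCM helicase, and later genes of mitosis are switched on by FOXM1 and B-MYB, many of them through NF-Y boxes and the cell cycle homology region of their promoters. Stellate cells of a healthy liver are mostly quiescent and divide when they activate, in injury or on culture plastic.

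The promoter stretches of 6 genes are printed to show the sequence elements by which these gene classes are known, in members that differ in their measured response. Mki67, Top2a and Cdk1 are G2/M genes, of which Mki67 and Top2a were lower in HAS2_Tg and Cdk1 did not pass the test. Mcm6 and Mcm5 are S phase genes that were lower, and Cdkn1b is a CDK inhibitor gene that was higher. Sequences are from RefSeq (GRCm38.p6), 5′ to 3′ on the gene's strand, starting 200 bases before the annotated start and ending before any transcribed base. Their positions are chr7:135716451-135716579 (minus strand) for Mki67, chr11:99024200-99024389 (minus) for Top2a, chr10:69352939-69353112 (minus) for Cdk1, chr1:128359706-128359905 (minus) for Mcm6, chr8:75109309-75109467 (plus) for Mcm5 and chr6:134920201-134920400 (plus) for Cdkn1b. Capitals mark matches on either strand to the NF-Y box CCAAT (reverse ATTGG), the cell cycle homology region TTTGAA (reverse TTCAAA) and the E2F sites TTTCGCGC, TTTGGCGC and TTCCCGCC, with overlapping matches joined.
Mki67: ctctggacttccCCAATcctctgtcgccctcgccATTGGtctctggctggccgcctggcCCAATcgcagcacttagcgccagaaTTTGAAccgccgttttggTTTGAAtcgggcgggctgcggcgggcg
Top2a: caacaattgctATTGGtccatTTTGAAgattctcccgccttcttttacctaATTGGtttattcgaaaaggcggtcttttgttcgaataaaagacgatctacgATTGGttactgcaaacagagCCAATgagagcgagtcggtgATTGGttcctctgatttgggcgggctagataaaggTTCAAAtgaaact
Cdk1: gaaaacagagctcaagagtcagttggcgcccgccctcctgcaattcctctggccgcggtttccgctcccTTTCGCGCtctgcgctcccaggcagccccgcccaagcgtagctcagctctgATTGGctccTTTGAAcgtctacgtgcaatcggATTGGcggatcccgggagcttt
Mcm6: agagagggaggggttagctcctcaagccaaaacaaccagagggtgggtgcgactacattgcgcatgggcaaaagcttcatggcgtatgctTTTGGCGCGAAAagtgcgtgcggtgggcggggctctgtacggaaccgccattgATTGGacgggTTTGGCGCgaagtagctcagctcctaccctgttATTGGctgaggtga
Mcm5: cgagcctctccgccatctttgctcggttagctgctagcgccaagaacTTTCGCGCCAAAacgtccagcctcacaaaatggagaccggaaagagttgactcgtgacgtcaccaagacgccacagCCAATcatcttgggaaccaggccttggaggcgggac
Cdkn1b: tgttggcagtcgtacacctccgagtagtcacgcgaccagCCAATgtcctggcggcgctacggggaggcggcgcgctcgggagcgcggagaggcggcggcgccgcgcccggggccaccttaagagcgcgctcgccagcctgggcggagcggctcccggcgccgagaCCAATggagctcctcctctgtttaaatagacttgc

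The printed Mki67 stretch holds 3 NF-Y boxes and 2 cell cycle homology matches, and that of Top2a 5 and 2. The Cdk1 stretch holds 2 NF-Y boxes, 1 cell cycle homology match and 1 E2F match. In Mcm6 there are 3 E2F and 2 NF-Y matches, in Mcm5 2 and 1, and the Cdkn1b stretch holds 2 NF-Y boxes and neither of the other elements.

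The S phase members that passed the test were all lower in the HAS2_Tg libraries than in the Has2_KO libraries. Of the G2/M members, 9 were lower, 1 was higher and 13 did not pass, and of the G1 members 2 were lower and 2 higher. The test was edgeR's quasi-likelihood test with Benjamini-Hochberg adjustment over all 13014 tested genes at 0.05, of which 40.7% passed, 20.5% lower and 20.2% higher in HAS2_Tg. Of 58 members, 55 had enough counts to be tested, of which 29 (52.7%) were lower, 4 (7.27%) were higher and 22 did not pass. Without HAS2_Tg replicate 4, the library that stood apart, 29 were lower and 3 higher. The count fell to 21 lower and 3 higher without HAS2_Tg replicate 5. It was 23, 22 and 23 lower without Has2_KO replicate 7, 8 and 9. The median log2 fold change (HAS2_Tg minus Has2_KO) of the tested members was -0.5, with a range of -2.3 to 0.81, and it was -0.01 over all tested genes. The members that did not reach the test were E2f2, Bub1 and Cdkn3. Tested members whose libraries did not overlap between the groups numbered 32 with the lower values in HAS2_Tg and 4 with the higher, against 26.9% and 25.2% of all tested genes. The summed level of the 23 S phase genes was 341, 349 and 345 CPM in HAS2_Tg and 478, 482 and 469 CPM in Has2_KO, 1.38 times higher in Has2_KO. That of the 24 G2/M genes was 86.4, 83.5 and 89.4 CPM against 116, 108 and 119 CPM, 1.32 times higher in Has2_KO. The largest parts of this G2/M difference were Mki67 (means of 3.16 and 14.2 CPM) and Top2a (3.35 and 8.39 CPM), so it does not describe the whole list. The sum of the 8 G1 genes was 824, 915 and 913 CPM against 784, 834 and 814 CPM, overlapping ranges. With CPM of the library totals, without TMM factors, a scaling tried after seeing the data, it was 764, 877 and 855 against 834, 885 and 862, and the order of the group means turned. Ccnd2 alone made up 529 of the mean of 884 CPM in HAS2_Tg, and 6 of the 8 genes had a negative log2 fold change.

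**Figure D1:**
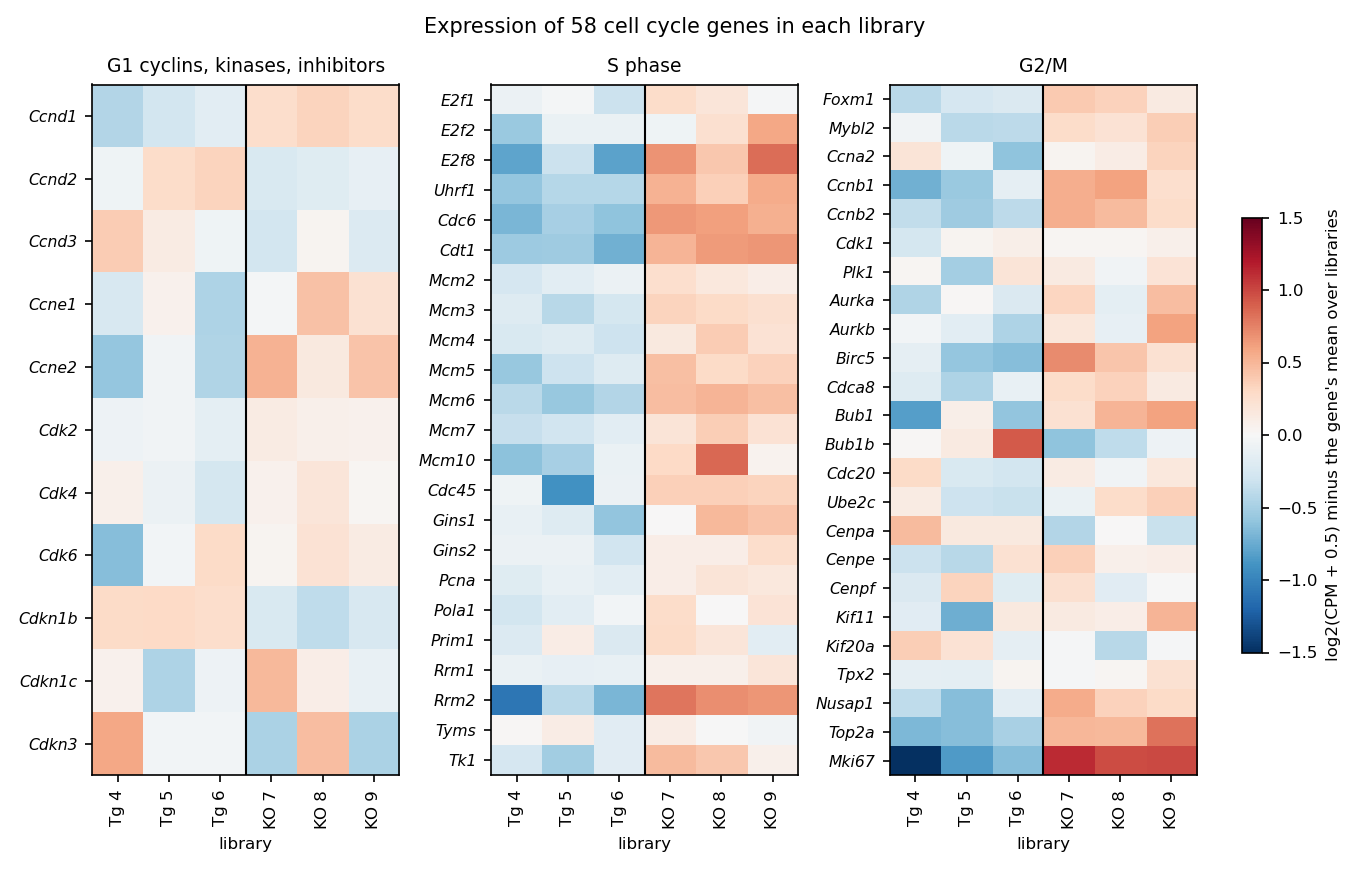
Level of each of the 58 genes (rows) in each library (columns, Tg 4 to 6 and KO 7 to 9), as log2(CPM + 0.5) minus the gene's mean over the 6 libraries, with red above and blue below that mean. The S phase panel is blue in the HAS2_Tg columns and red in the Has2_KO columns for nearly all rows, while the G1 and G2/M panels hold rows of both kinds. Of the tested genes, 6 of 8 in G1 and 20 of 23 in G2/M had a negative log2 fold change.

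Among G1 genes, 2 were lower (Ccnd1 and Ccne2), 2 were higher (Ccnd2 and Ccnd3) and 4 did not pass the test, with a median log2 fold change of -0.2. The 25% in each direction is near the 20.5% and 20.2% of all tested genes. Ccnd1 (NCBI gene 12443, chr7:144929931-144939831, minus strand) codes for cyclin D1, the D-type cyclin that growth factor signals induce. Its level was 51.8, 58.2 and 62.8 CPM in HAS2_Tg and 84.5, 88.9 and 85.3 CPM in Has2_KO. The groups did not overlap, and Ccnd1 was lower by a log2 fold change of -0.58 (SE 0.08, edgeR adjusted p = 5.14e-05). Ccnd2, the gene of cyclin D2, read 442, 560 and 585 CPM in HAS2_Tg and 394, 407 and 426 CPM in Has2_KO. All its HAS2_Tg libraries were above all Has2_KO libraries, with replicate 4 the nearest to them (log2 fold change 0.37, SE 0.10, edgeR adjusted p = 0.00649). Ccnd3, the gene of cyclin D3, read 91.8, 76.5 and 67.6 CPM in HAS2_Tg and 58.2, 72.5 and 61.1 CPM in Has2_KO. Its groups overlapped, and its call was close to the threshold (log2 fold change 0.30, SE 0.11, edgeR adjusted p = 0.0472). With library totals as the only scaling, neither Ccnd2 (log2 fold change 0.20, edgeR adjusted p = 0.112) nor Ccnd3 (0.12, adjusted p = 0.382) passed. That scaling moved the median log2 fold change of all genes from -0.01 to -0.18, called 4827 genes lower and 1477 higher in all, and gave 5 lower and 0 higher among the G1 genes. Ccnd3 did not pass either when HAS2_Tg replicate 4 (0.17, edgeR adjusted p = 0.127) or replicate 5 (0.0882), or Has2_KO replicate 7 (0.192) or 9 (0.155), was left out.

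On the length-scaled FPKM values, which allow levels of different genes to be set side by side, Ccnd2 was the most abundant D-type cyclin in both groups. Ccnd1 made up 10.0%, 10.2% and 10.9% of the summed D cyclin FPKM in the HAS2_Tg libraries and 18.6%, 18.0% and 17.7% in the Has2_KO libraries. Ccnd2 held 62.2% ± 5.5 (SD, n = 3) and 56.2% ± 2.1, and Ccnd3 27.4% ± 5.9 and 25.7% ± 2.1. The summed D cyclin FPKM itself was 125.4, 143.4 and 141.0 in HAS2_Tg and 126.5, 137.5 and 133.6 in Has2_KO, ranges that overlap. The Ccnd1 share thus did not overlap between the groups, while the FPKM sum differed by less than the spread between libraries. Shares within a library do not depend on its scaling, but the sum does, and FPKM carry no TMM factors. The median log2 fold change of all genes was -0.15 with limma on log2(FPKM + 1) and -0.01 in the main test. The FPKM sum is therefore not comparable with the TMM-scaled calls of Ccnd2 and Ccnd3 above.

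Cyclin E binds CDK2 late in G1. Ccne2, the gene of cyclin E2, read 3.05, 4.62 and 3.41 CPM in HAS2_Tg and 7.15, 5.38 and 6.64 CPM in Has2_KO, without overlap (log2 fold change -0.79, SE 0.19, edgeR adjusted p = 0.00429). Ccne1, the gene of cyclin E1, read 2.24, 2.88 and 1.84 CPM against 2.66, 3.87 and 3.28 CPM, with overlap, and did not pass (-0.49, SE 0.24, edgeR adjusted p = 0.11). The kinase genes gave no call. Cdk4 read 211, 187 and 166 CPM in HAS2_Tg and 208, 227 and 203 CPM in Has2_KO (log2 fold change -0.18, 95% interval -0.37 to 0.01). Cdk6, the other partner of the D cyclins, read 5.74, 8.98 and 11.4 CPM against 9.5, 10.8 and 10.1 CPM (-0.21, interval -0.62 to 0.19). Cdk2 read 16.8, 17.1 and 16.0 CPM against 19.4, 18.7 and 18.5 CPM, groups that do not overlap (-0.18, interval -0.39 to 0.02). The Cdk6 level was lowest in HAS2_Tg replicate 4, and those of Ccnd1 and Ccnd2 were too, while Cdk4 and Ccnd3 were highest there within the group.

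**Figure D2:**
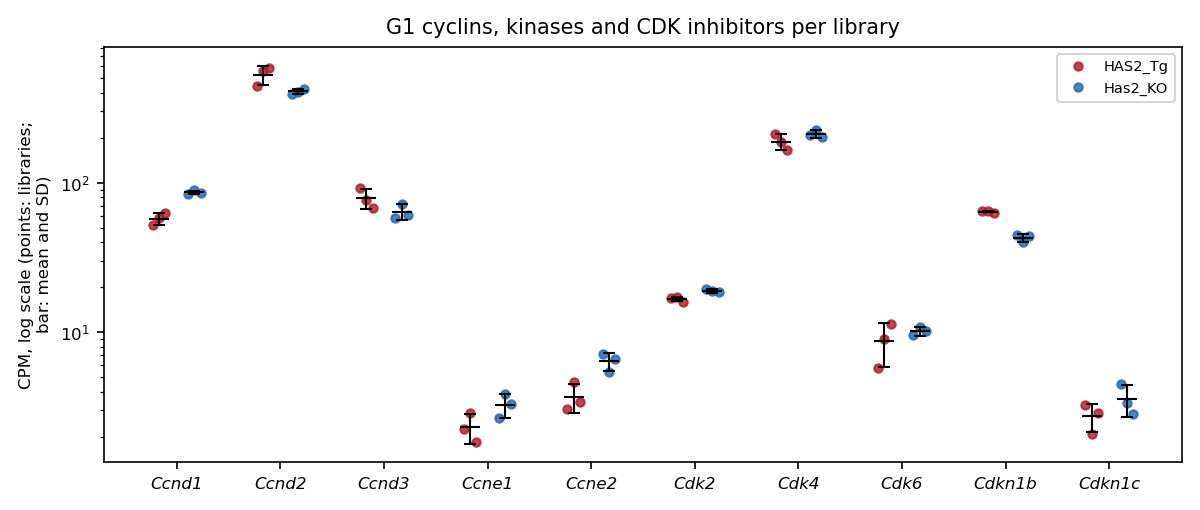
CPM on a log axis of the G1 cyclin, kinase and CDK inhibitor genes, with a point per library and the mean and SD (n = 3) of each group in black. Ccnd1 sits at 51.8 to 62.8 CPM in HAS2_Tg, under the 84.5 to 88.9 CPM of Has2_KO, while Ccnd2 and Cdkn1b show the opposite order.

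Of 22 tested S phase genes, 18 (81.8%) were lower in HAS2_Tg and 0 were higher, against 20.5% and 20.2% of all tested genes. E2f1, Gins2, Prim1 and Tyms did not pass the test. All 22 had a negative log2 fold change, from -2.3 to -0.03 with a median of -0.66. By CPM, 20 of the 22 had all HAS2_Tg libraries under all Has2_KO libraries, against 26.9% of all tested genes. Without HAS2_Tg replicate 5 the count of lower S phase genes was 12, the least of any left-out library.

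Origin licensing genes stood among those with the smallest adjusted p. Cdt1 (NCBI gene 67177, chr8:122568015-122573130, plus strand) codes for the factor that brings the MCM helicase to origins. It read 5.11, 5.14 and 4.46 CPM in HAS2_Tg and 11.1, 12.2 and 12.4 CPM in Has2_KO, 2.43-fold higher in Has2_KO (log2 fold change -1.28, SE 0.14, edgeR adjusted p = 2.44e-06). Cdc6, whose product works with CDT1 in licensing, read 0.628, 0.785 and 0.699 CPM against 2.36, 2.28 and 2.14 CPM (-1.66, SE 0.28, adjusted p = 2.31e-04). Both genes were apart in every library. Gmnn, which codes for the CDT1 inhibitor geminin and is no member, was measured at 3.50, 3.31 and 3.76 CPM and at 3.95, 3.64 and 4.04 CPM, and did not pass the test (-0.14, SE 0.18, edgeR adjusted p = 0.571).

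The 6 subunits of the replicative helicase, Mcm2 to Mcm7, were all lower, by log2 fold changes of -0.96 to -0.34. Mcm6 (NCBI gene 17219, chr1:128331575-128359705, minus strand), whose promoter is printed above, had the largest change of the 6. Its level was 19.8, 17.7 and 19.3 CPM in HAS2_Tg and 36.5, 37.8 and 36.2 CPM in Has2_KO (-0.96, SE 0.09, edgeR adjusted p = 6.48e-07). Mcm5, the other helicase gene printed above, read 8.88, 10.7 and 11.6 CPM against 18.4, 16.4 and 17.1 CPM (-0.73, SE 0.12, adjusted p = 1.84e-04). For Mcm3 the levels were 36.2, 31.0 and 34.3 CPM and 52.5, 50.7 and 49.2 CPM (-0.58, SE 0.09, adjusted p = 5.96e-05). Mcm7 levels were 21.5, 22.5 and 24.6 CPM and 31.6, 35.6 and 32.0 CPM (-0.53, SE 0.10, adjusted p = 3.74e-04). None of these subunits overlapped between the groups. Mcm4 (-0.50) and Mcm2 (-0.34) had the smallest changes of the 6.

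The subunits of this helicase assemble as a ring of equal parts, which makes their levels per length of interest. Their summed FPKM was 44.31, 45.13 and 46.57 in HAS2_Tg and 76.97, 78.93 and 74.28 in Has2_KO. These sums carry no TMM factors, so their difference is not on the scale of the CPM values above, while shares within a library are free of scaling. Mcm6 made up 14.2%, 12.9% and 13.3% of that sum in HAS2_Tg and 17.3%, 17.5% and 17.7% in Has2_KO. Mcm2 made up 19.1%, 20.7% and 20.5% against 17.9%, 16.4% and 16.7%, the opposite order. The share of Mcm3 was 24.3% ± 1.7 (SD, n = 3) and 24.3% ± 0.75. Shares of Mcm4, Mcm5 and Mcm7 differed between the groups by less than their spread or close to it (16.1% ± 1.1 and 15.2% ± 1.1, 6.28% ± 0.77 and 6.97% ± 0.52, 19.7% ± 0.92 and 19.1% ± 0.88).

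**Figure D3:**
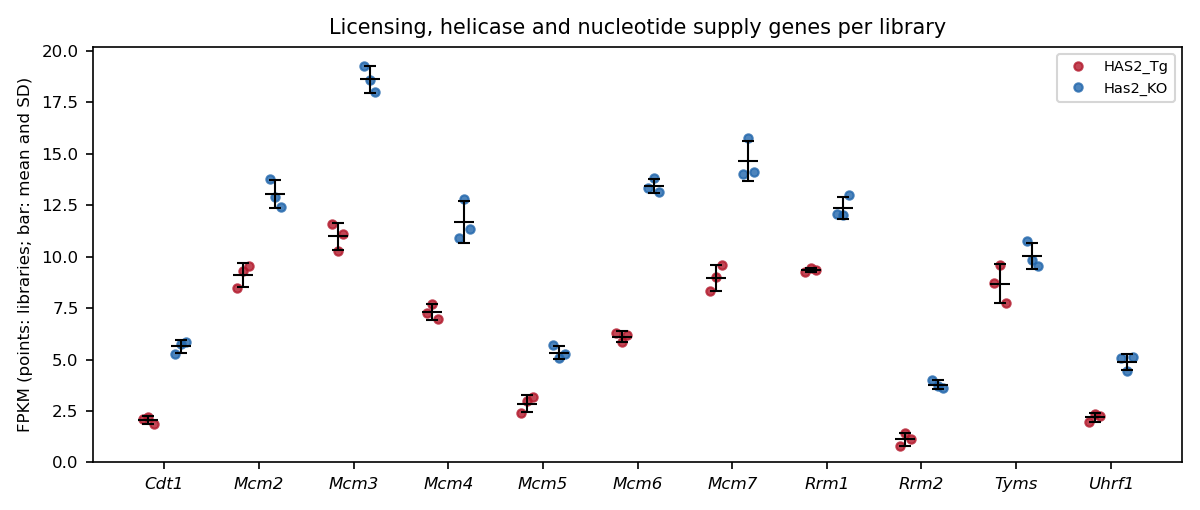
FPKM of licensing, helicase and nucleotide supply genes, with a point per library and the mean and SD (n = 3) of each group in black. FPKM carry no TMM factors. The helicase genes are all lower in HAS2_Tg (summed FPKM of 44.31 to 46.57 against 74.28 to 78.93), and Tyms shows the smallest difference relative to its spread.

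Genes whose products convert the loaded helicase into a moving fork were measured at low levels with wider errors. Mcm10 (log2 fold change -1.02, SE 0.29), Cdc45 (-0.81, SE 0.27) and Gins1 (-0.76, SE 0.27) were lower, with edgeR adjusted p of 0.0122, 0.0289 and 0.0349, at means of 1.53 to 1.59 CPM in HAS2_Tg and 2.59 to 3.17 CPM in Has2_KO. All 3 lost their call when HAS2_Tg replicate 5 was left out (edgeR adjusted p = 0.0501, 0.12 and 0.0612) and when Has2_KO replicate 8 was (0.0846, 0.0753 and 0.128). Cdc45 lost it also without Has2_KO replicate 7 (0.0746) or 9 (0.0712), and Gins1 without HAS2_Tg replicate 6 (0.123) or Has2_KO replicate 9 (0.114). Gins2 did not pass (-0.36, SE 0.18, edgeR adjusted p = 0.131), and 2758 of its 3900 exon bases overlap Gse1 on the other strand. The sources used here do not say whether reads were counted by strand, so reads of the overlapping bases might come from either gene. Overlaps on the other strand were also found for Ccnd1 (818 of 3740 exon bases, with LTO1) and Cdk4 (641 of 2053, with Tspan31). Ccnd3 (361 of 2447, with Bysl) and Ccne2 (336 of 3200, with Ints8) had them too, as did Mcm7, Cdc45, Tk1, Nusap1, Cdc20 and Ccna2. Of these genes and Gins2, only Ccnd1 had any expected count that was not whole. Reads of the others were thus not recorded as shared between genes. Pcna, the sliding clamp that holds polymerases on DNA, read 67.7, 70.6 and 68.4 CPM in HAS2_Tg and 82.3, 87.8 and 85.2 CPM in Has2_KO. The groups were apart and their difference was small (-0.30, SE 0.07, edgeR adjusted p = 0.00389). Of the polymerase alpha and primase genes, Pola1 was lower (-0.33, SE 0.11, edgeR adjusted p = 0.0291) and Prim1 did not pass (-0.22, SE 0.15, adjusted p = 0.284). Pola1 lost its call without HAS2_Tg replicate 4 (0.0612) or 5 (0.0731), or Has2_KO replicate 7 (0.134) or 9 (0.0957).

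Nucleotide supply genes differed widely among themselves. Ribonucleotide reductase is built of a large subunit, coded by Rrm1, and a small subunit that is made in S phase, coded by Rrm2. Rrm2 read 1.88, 3.31 and 2.62 CPM in HAS2_Tg and 8.29, 7.66 and 7.48 CPM in Has2_KO, 2.98-fold higher in Has2_KO (log2 fold change -1.58, SE 0.19, edgeR adjusted p = 9.86e-06). Rrm1 was lower by a log2 fold change of -0.23 (SE 0.08, edgeR adjusted p = 0.033), at 40.0 ± 0.325 CPM (SD, n = 3) against 46.9 ± 2.09 CPM. Tk1, the thymidine kinase gene, was lower at low levels, 0.588 ± 0.136 CPM against 1.19 ± 0.242 CPM (-1.01, SE 0.36, edgeR adjusted p = 0.0373). Both lost their call without HAS2_Tg replicate 5 (Rrm1 0.0818, Tk1 0.124), Has2_KO replicate 7 (0.0716 and 0.128) or 8 (0.0648 and 0.105), Rrm1 also without Has2_KO replicate 9 (0.155) and Tk1 without HAS2_Tg replicate 4 (0.0609). Tyms, the gene of thymidylate synthase, read 35.3 ± 3.41 CPM and 36.1 ± 2.20 CPM, with a log2 fold change of -0.03 and a 95% interval of -0.24 to 0.17. Some reads of Tyms, Rrm2 and Mcm5 were shared with other genes, since these are among 13 of the 58 members whose expected counts are not whole.

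Regulators in the S phase list included the largest change of any member. E2f8, an E2F target that codes for a repressor of E2F genes, read 0.179, 0.436 and 0.175 CPM in HAS2_Tg and 1.37, 1.06 and 1.60 CPM in Has2_KO (log2 fold change -2.30, SE 0.44, edgeR adjusted p = 6.85e-04). These levels rest on 2, 5 and 2 counts against 18, 14 and 21 counts. Uhrf1, which guides maintenance methylation of newly copied DNA, read 7.53, 8.46 and 8.48 CPM against 16.8, 14.9 and 17.2 CPM (-1.0, SE 0.12, edgeR adjusted p = 7.42e-06). E2f1, an activating E2F, did not pass (-0.32, SE 0.17, adjusted p = 0.152). E2f2 had 2, 5 and 5 counts in HAS2_Tg and 6, 9 and 13 counts in Has2_KO, too few for the test.

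**Figure D4:**
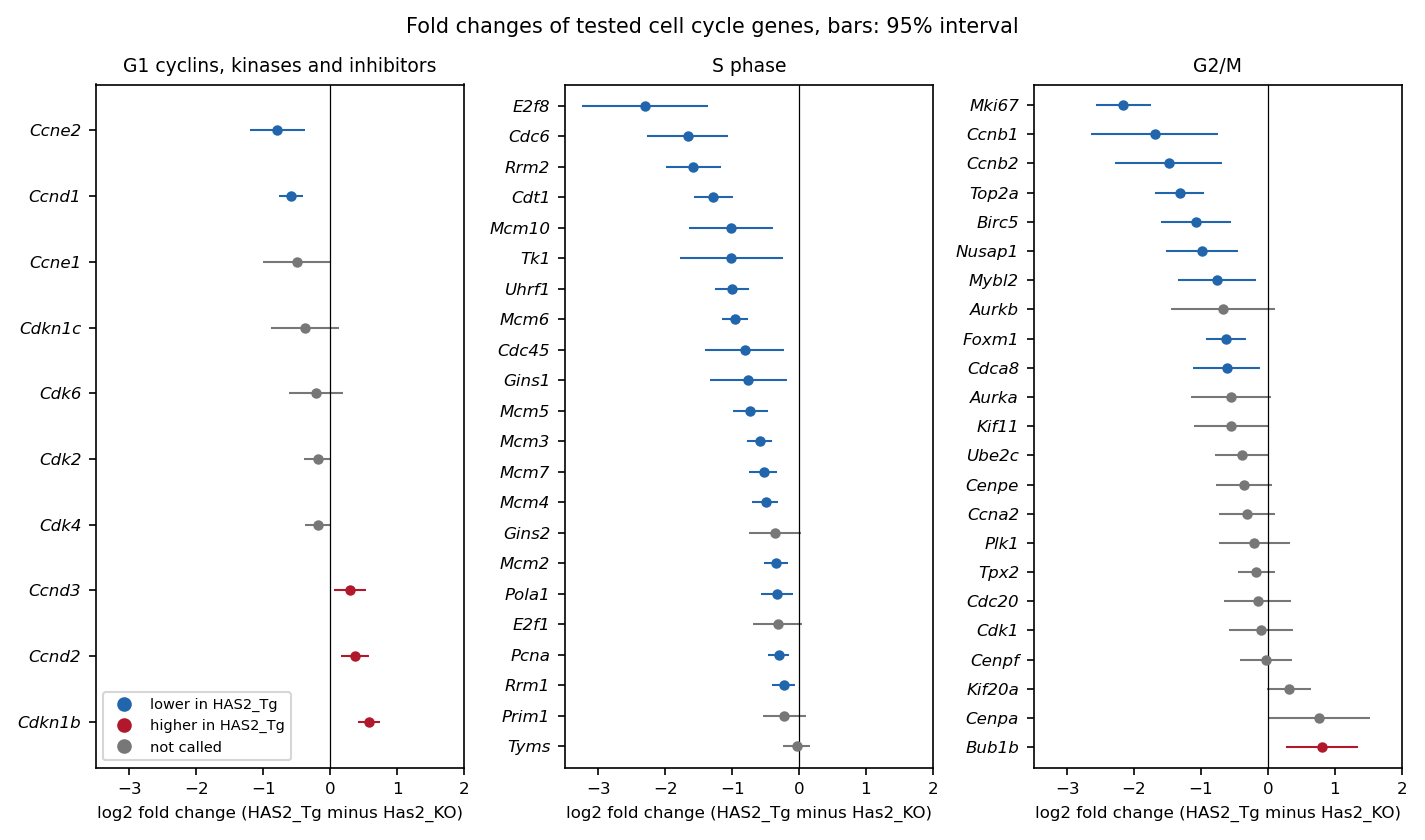
Log2 fold change (HAS2_Tg minus Has2_KO, edgeR) of the 55 tested genes in 3 panels, with 95% intervals as bars and colour for the call. S phase genes lie left of 0 down to the value of E2f8 at -2.30, and many G2/M intervals cross 0.

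Of 23 tested G2/M genes, 9 (39.1%) were lower and 1 (4.35%) was higher, against 20.5% and 20.2% of all tested genes. The other 13 did not pass the test. Of the 23, 20 had a negative log2 fold change, and the median of the list was -0.55. The median SE was 0.24 in this list and 0.13 in the S phase list, and the median FPKM in Has2_KO was 1.29 and 4.87, so the G2/M genes were measured at lower levels and with wider intervals. Among the transcription factors, Foxm1 read 5.29, 5.93 and 6.12 CPM in HAS2_Tg and 9.58, 9.25 and 7.94 CPM in Has2_KO, without overlap (-0.62, SE 0.14, edgeR adjusted p = 0.00299). The gene of B-MYB, Mybl2, was lower (-0.76, SE 0.28, edgeR adjusted p = 0.0389) at 1.09 ± 0.222 against 1.85 ± 0.122 CPM (SD, n = 3). Its call was lost without HAS2_Tg replicate 5 (edgeR adjusted p = 0.112) or 6 (0.11), or Has2_KO replicate 7 (0.0863), 8 (0.0712) or 9 (0.117).

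Mki67 (NCBI gene 17345, chr7:135689784-135716450, minus strand) codes for Ki-67, a surface layer protein of mitotic chromosomes used as a marker of dividing cells. It read 1.88, 3.49 and 4.11 CPM in HAS2_Tg and 15.1, 13.7 and 13.8 CPM in Has2_KO. Every HAS2_Tg library was far under every Has2_KO library, replicate 4 the lowest (log2 fold change -2.16, SE 0.19, edgeR adjusted p = 3.15e-07, 4.47-fold higher in Has2_KO). Top2a, the topoisomerase that untangles sister chromosomes, read 3.14, 3.23 and 3.67 CPM against 7.75, 7.66 and 9.77 CPM (-1.32, SE 0.17, adjusted p = 1.73e-05). Nusap1, a spindle microtubule protein gene, read 1.35, 1.05 and 1.66 CPM against 3.04, 2.58 and 2.44 CPM (-0.99, SE 0.25, edgeR adjusted p = 0.0062). Birc5, which codes for survivin of the chromosomal passenger complex, read 2.33, 1.57 and 1.49 CPM against 4.56, 3.64 and 3.13 CPM (-1.07, SE 0.24, adjusted p = 0.00275). These 4 genes were apart in every library.

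CDK1 drives mitosis with B-type cyclins, and the cyclin B genes were lower while Cdk1 did not pass the test. Cdk1 read 1.88, 2.44 and 2.53 CPM in HAS2_Tg and 2.43, 2.43 and 2.52 CPM in Has2_KO, overlapping ranges, with a log2 fold change of -0.10 and a 95% interval of -0.58 to 0.37. Ccnb1, the gene of cyclin B1, read 0.179, 0.262 and 0.524 CPM against 1.14, 1.21 and 0.839 CPM (-1.69, SE 0.45, edgeR adjusted p = 0.00709). Ccnb2, the gene of cyclin B2, read 0.448, 0.349 and 0.437 CPM against 1.29, 1.21 and 0.992 CPM (-1.48, SE 0.37, edgeR adjusted p = 0.00546). Both cyclin B genes were lower without overlap, at levels of a few counts per library (2, 3 and 6 counts of Ccnb1 in HAS2_Tg). Ccna2, the gene of cyclin A2, did not pass (-0.31, SE 0.20, edgeR adjusted p = 0.227).

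Checkpoint, centromere and motor genes were mostly without a call. Bub1b (NCBI gene 12236), which codes for the spindle checkpoint protein BUBR1, was the G2/M gene that was higher in HAS2_Tg. It read 6.55, 7.15 and 12.7 CPM in HAS2_Tg and 4.11, 4.85 and 6.10 CPM in Has2_KO (log2 fold change 0.81, SE 0.25, edgeR adjusted p = 0.0209). Replicate 6 was far above the other HAS2_Tg libraries, and without it Bub1b did not pass (0.45, edgeR adjusted p = 0.0697), nor did it without Has2_KO replicate 7 (adjusted p = 0.082) or 8 (0.0739). With library totals as the scaling it missed the threshold too (0.63, adjusted p = 0.0518). Its partner Bub1 had 0, 5 and 1 counts in HAS2_Tg and 7, 10 and 11 counts in Has2_KO, too few for the test. Cdca8, which codes for borealin of the passenger complex, was lower close to the threshold (-0.61, SE 0.23, edgeR adjusted p = 0.0498). It missed the threshold without any 1 of the 6 libraries (adjusted p = 0.0554 to 0.157). The mitotic kinase genes Plk1 (-0.20, SE 0.25), Aurka (-0.55, SE 0.28) and Aurkb (-0.67, SE 0.36) did not pass. Cdc20 and Ube2c, which act with the ubiquitin ligase that ends mitosis, did not pass (-0.15, SE 0.24, and -0.39, SE 0.19). The kinetochore genes Cenpe (-0.35) and Cenpf (-0.03), the centromere histone gene Cenpa (0.77) and the spindle genes Kif11 (-0.55), Kif20a (0.32) and Tpx2 (-0.17) did not pass, and their edgeR adjusted p lay between 0.0956 and 0.928. Of the exon bases of Kif20a, 1271 of 3999 overlap Cdc23 on the other strand.

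Of the 3 inhibitor and phosphatase genes, 1 was higher in HAS2_Tg, 1 did not pass the test and 1 was not tested. Cdkn1b (NCBI gene 12576, chr6:134920401-134925525, plus strand) codes for p27, which binds cyclin E with CDK2 and holds cells out of the cycle. It read 64.3, 64.7 and 63.1 CPM in HAS2_Tg and 44.5, 40.0 and 44.3 CPM in Has2_KO. The HAS2_Tg libraries lay close together above all Has2_KO libraries (log2 fold change 0.58, SE 0.08, edgeR adjusted p = 3.08e-05). Of the 4 higher members Cdkn1b alone kept its call under every alternative run. Cdkn1c, the gene of the related inhibitor p57, read 3.23, 2.09 and 2.88 CPM against 4.49, 3.34 and 2.82 CPM, with overlap, and did not pass (-0.38, SE 0.24, edgeR adjusted p = 0.223). Cdkn3, a phosphatase gene whose product acts on CDKs, had 6, 2 and 2 counts against 0, 6 and 0 counts and was not tested.

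Other genes of the same pathways, 136 in 4 lists of which 128 were tested, were lower in 46 cases (35.9%) and higher in 13 (10.2%). Over all tested genes the shares were 20.5% and 20.2%. The median log2 fold change of these pathway genes was -0.23. The 44 other origin and replication fork genes held 21 lower (47.7%) and 2 higher, with a median of -0.29. The chromatin remodeler gene Hells read 3.99 ± 0.141 CPM (SD, n = 3) in HAS2_Tg and 8.32 ± 0.448 CPM in Has2_KO (log2 fold change -1.06, SE 0.15, edgeR adjusted p = 4.41e-05). The fork protection gene Timeless was lower too (-1.14), while Rpa3 (0.56) and Rpa1 (0.23), subunits of the single-strand binding complex, were higher. Of 50 tested spindle, kinetochore, chromosome and cytokinesis genes, 17 were lower (34%) and 4 higher (8%), with a median of -0.28. The kinesin genes Kif23 (-1.86), Kif4 (-2.21) and Kif15 (-0.80) were the lower ones with the smallest adjusted p, and Smc4 (0.35), Cit (0.78) and Kifc1 (0.54) were the higher ones by the same order. The 16 Rb, E2F and MuvB genes held 3 lower (18.8%, E2f3 -0.59, Rbl1 -0.41, Lin54 -0.41) and 2 higher (12.5%, Tfdp2 0.54, Lin52 0.31), shares under the 20.5% and 20.2% of all tested genes, with a median of -0.07.

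Of 18 tested CDK regulators outside the members, 5 were lower and 5 higher (27.8% each, against 20.5% and 20.2% of all tested genes), with a median of 0.09. Pkmyt1, which codes for a kinase that keeps CDK1 inactive before mitosis, read 12.2, 11.9 and 10.1 CPM in HAS2_Tg and 3.95, 3.34 and 2.75 CPM in Has2_KO (log2 fold change 1.77, SE 0.16, edgeR adjusted p = 5.37e-07). Cdkn1a, the gene of the CDK inhibitor p21, was higher at 1080 ± 46.9 CPM (SD, n = 3) against 698 ± 24.8 CPM (0.63, SE 0.07, edgeR adjusted p = 7.64e-06). Cdk7, part of the CDK-activating kinase, was also higher (0.33). Cdkn2b, the gene of the CDK4 and CDK6 inhibitor p15, was lower (-0.73, SE 0.13, edgeR adjusted p = 2.99e-04), as were Ccnf (-1.20) and Cks1b (-0.50).

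Promoter windows of 300 bases (250 before to 50 after the RefSeq start) were found for 46 of the 58 members, as 50 windows, and 32851 windows of all genes served as the comparison. The NF-Y box CCAAT was present in 16 of 19 G2/M windows (84.2%), 18 of 23 S phase windows (78.3%) and 2 of 6 G1 windows (33.3%), against 37.4% of all windows. The cell cycle homology region TTTGAA was present in 13 of 19 G2/M windows (68.4%) and 4 of 23 S phase windows (17.4%), against 17.9% of all windows. An E2F match was present in 11 of 23 S phase windows (47.8%) and 1 of 19 G2/M windows (5.26%), that of Cdk1, against 2.96% of all windows. Neither TTTGAA nor an E2F match was found in the 6 G1 windows. These are matches of letters, given as a description and not as sites of binding.

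**Figure D5:**
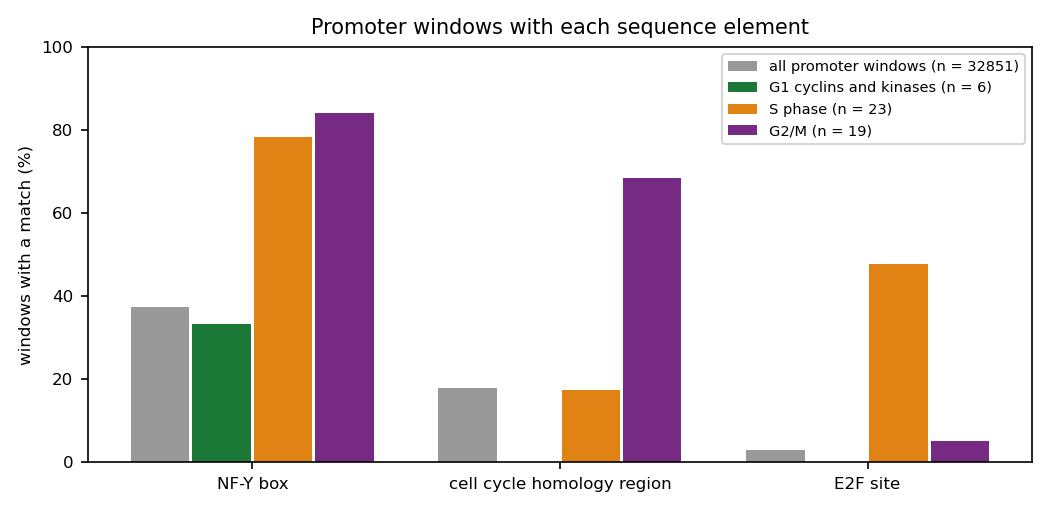
Share of promoter windows (percent, bars from 0) with at least 1 match to each element, for all RefSeq windows and for the G1, S phase and G2/M members. The TTTGAA bar is highest for G2/M windows (68.4%) and the E2F bar for S phase windows (47.8%).

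Genes with and without the elements were found both among the lower members and among those that did not pass. Of the 13 G2/M genes with TTTGAA, 4 were lower, 1 was higher and 8 did not pass the test, and of the 6 without it 4 were lower. Mki67 and Top2a hold it and were lower, while Cdk1, Cenpf and Plk1 hold it and did not pass. Of the 10 S phase genes with an E2F match 8 were lower, as were 8 of the 10 without. Mcm6, Mcm5 and Cdt1 hold such a match, and Cdc6 and Rrm2, which were lower by more, hold none in the window. Other forms of the E2F site were not searched. The Cdc6 window (chr11:98907901-98908200) lies inside the annotated gene (chr11:98907709-98923942, plus strand) and not before its first base. With so few genes in each cell, these counts were not tested.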

How the data were processed

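RNA-seq of 6 stellate cell libraries was analysed. Per the submitters' processing notes, RSEM and mm10 were used; its version is not given in these sources. The authors deposited an expected count per gene, an estimate that can be fractional where reads fit several genes, per the file headers. The deposited FPKM values are fragments scaled by gene length and depth, per the file headers. A gene missing from a library was set to 0 (12658 values). Of 17909 identifiers, 17857 were named through RefSeq (GRCm38.p6; mm10 is another name for GRCm38).

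Expected counts were rounded, passed through filterByExpr, given TMM factors and tested over all genes with edgeR 4.0.16 (robust quasi-likelihood, two-sided, Benjamini-Hochberg at 0.05; contrast HAS2_Tg minus Has2_KO). CPM values are TMM-scaled. The standard error (SE) was taken as |log2 fold change| over the root of F. Alternatives used DESeq2 1.42.0, limma 3.58.1 on log2 FPKM, other scalings and filters, and each library left out. The scripts were tested on simulated data. The members and lists were chosen with earlier results of these data known. Values per library are given for all G1 and inhibitor members. In the S phase and G2/M lists they are given for the 8 called members with the smallest adjusted p, for Pcna, Mki67, Top2a, Ccnb1 and Cdk1, and for called members against the list's majority. Of each other list, up to 3 called genes per direction are named by adjusted p; 1 gene that this rule takes is not reported here. Other names, such as Gmnn, and the printed promoters were chosen after values were seen.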

Additional observations from a re-analysis of the deposited data

How the results depend on the processing

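Of the 29 lower members, 21 kept their direction and call under every alternative that tested them, and the other 8 (Mcm10, Cdc45, Gins1, Pola1, Rrm1, Tk1, Mybl2 and Cdca8) lost the call in at least 1. Of the 4 higher members 1, Cdkn1b, kept it. With library totals as the scaling, which moves the median log2 fold change of all genes to -0.18, 39 members were lower and 1 higher, against 29 and 4. A stricter filter (a mean of 5 CPM, and 1 CPM throughout at least 1 group) tested fewer genes. It called 20 of 32 tested members, 4 of 10 in G2/M, 6 of 15 other CDK regulators and 11 of 26 other spindle genes. With limma on log2(FPKM + 1) or log2(FPKM + 0.1), 6 of 12 tested G2/M members and 8 of 15 other Rb, E2F and MuvB genes were called. The main test called 10 of 23 and 5 of 16. Without a filter, limma on log2(FPKM + 1) called 11 of 24 G2/M members, all lower, on values that carry no TMM factors. The DESeq2 Wald test called 26 members, 13 of them in S phase. At an adjusted p of 0.01, 23 members were called, 12 of them in S phase. That threshold also called 2 of the Rb list, 5 CDK regulators, 17 origin and fork genes and 8 spindle genes. Leaving out each library gave 24 to 33 called members, 3 to 5 in G1, 12 to 17 in S phase, 7 to 11 in G2/M and 1 inhibitor, with 3 to 6 in the Rb list, 6 to 8 CDK regulators, 17 to 24 origin and fork genes, 13 to 22 spindle genes and 4188 to 5624 genes in all. Without each library in turn, the log2 fold changes of 5 genes without a call crossed 0: Cdk6 (-0.46 to 0.01), Cdk1 (-0.18 to 0.01), Plk1 (-0.38 to 0.02), Tyms (-0.09 to 0.04) and Cenpf (-0.24 to 0.10). The cause was not tested. No paired analysis was possible because the groups share no replicate numbers. Depth limits the genes of a few counts per library, among them E2f8, Ccnb1 and the untested E2f2, Bub1 and Cdkn3.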

Other observations

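Ratios of 2 genes within a library do not depend on its scaling, and 12 ratios of cell cycle genes were computed from FPKM after the values of the members had been seen. Mki67 relative to Cdk1 was 0.279, 0.402 and 0.458 in the HAS2_Tg libraries and 1.74, 1.58 and 1.54 in the Has2_KO libraries. The reductase ratio Rrm2 to Rrm1 was 0.0852, 0.153 and 0.12 against 0.332, 0.307 and 0.278. Cdt1 relative to Gmnn, the gene of its inhibitor, was 0.634, 0.675 and 0.515 against 1.22, 1.45 and 1.33. Cdkn1b relative to Ccnd1 went the other way, with 1.97, 1.77 and 1.59 against 0.836, 0.715 and 0.824. In 11 of the 12 ratios the groups did not overlap (exact permutation p = 0.1, the smallest that 3 against 3 libraries allow, adjusted 0.109 over the 12), so none could pass 0.05. The exception was Ccne2 to Ccne1 (exact permutation p = 0.4). Of all single tested genes, 26.9% had groups that did not overlap with the lower values in HAS2_Tg, and 25.2% with the higher. No share over other gene pairs was computed. Pairs such as Mki67 with Cdk1 set a called gene against an uncalled one, so the count of ratios adds little to the calls.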
